A study of Myzus persicae with 16 samples.

Results

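This account concerns a single contrast in the green peach aphid Myzus persicae: how far the response to the alarm pheromone EBF, (E)-beta-farnesene, differed between aphids reared on plants that make EBF and aphids reared on wild-type plants. It was taken as the log2 change with EBF in aphids reared on 35S:EBFS Arabidopsis minus the log2 change with EBF in aphids reared on Col-0, and all 16 of the 16 arrays of the series enter it. A positive value means that the response of 35S:EBFS-reared aphids was the more positive. The 4 conditions were Col-0-reared aphids given hexane, Col-0-reared aphids given EBF, 35S:EBFS-reared aphids given hexane and 35S:EBFS-reared aphids given EBF. All were pools of 50 whole aphids of the red tobacco adapted strain, kept on their plants for at least 6 months with 16 h days and 8 h nights. Exposure lasted 30 min, with 1 µg of EBF dissolved in hexane or with the hexane solvent. The labels call the Col-0-reared aphids not habituated and the 35S:EBFS-reared aphids habituated. The plants' EBF synthase gene is driven by 35S, a viral promoter active in nearly all plant tissues. How many separate colonies stood behind each rearing is not given in the sources used here.

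EBF is the volatile that an aphid gives off when it is attacked. Aphids nearby stop feeding, withdraw their mouthparts and walk away or drop from the plant. Aphids that live with the compound constantly around them cease to react to it, which is called habituation, and a difference between both responses in messenger RNA is what the contrast reads.

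Each array carried 2 conditions in different dyes. The Col-0 response, EBF over solvent, was hybridised directly on 4 arrays, and so were the 35S:EBFS response and the rearing comparison, 35S:EBFS over Col-0, with EBF and with solvent. In each of these 4 array groups the dyes were exchanged on 2 arrays. The groups close a loop, so the difference of responses can be had by 2 ways that share no array: from the 8 EBF-over-solvent arrays, or from the 8 arrays that compare the rearings. The joint fit averages both ways. Nothing in the labels says that arrays of a group came from separate extracts, so each p-value is set against array-to-array variation, which may be in part technical.

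The arrays fell on 2 slides of 8. All 8 channels of exposed Col-0-reared aphids were on slide 1 and all 8 of solvent-treated 35S:EBFS-reared aphids on slide 2, and slide and array group are tied, so an effect of the slide on a ratio cannot be told apart from the array group. Red spots were saturated at 3.0% to 4.2% on slide 2 and at 0% on slide 1. Probes carry contig names from a sequence assembly, of which 0 matched the RefSeq gene table for M. persicae, so no gene or pathway is named here. Fewer aphid cells of a type and less RNA per cell cannot be told apart in pools of whole animals.

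The 4 arrays of the 35S:EBFS response agreed poorly with the rest of the loop in their labelled direction, and every value below that rests on them has to be read with this. As labelled, the closure of the loop, the sum of the 4 array groups round it, which is 0 without error, had an unadjusted p under 0.05 at 1357 of 12780 tested probes (10.6%). With these 4 arrays turned it had one at 283 (2.21%), the fewest of all 8 combinations of turned and unturned groups. Other turns also had fewer than the labels. With the solvent rearing arrays turned as well, which turns all of slide 2, it was 511 (4.00%). With the solvent rearing arrays alone turned it was 676 (5.29%). The lowest count does not by itself mark the true direction. Deviations of same-numbered arrays in neighbouring groups, with signs set to make r positive for a shared extract, were above 0 in 5 of 16 pairs as labelled and in 13 of 16 with the 35S:EBFS response arrays turned. With slide 2 turned, and with the solvent rearing arrays alone turned, it was 11 of 16. Turning a group changes the sign of all its pairs with a neighbour at once, so these are not 16 separate outcomes. As labelled, differently numbered arrays correlated from -0.60 to 0.71, and 24 of 48 such pairs were above 0.1, against 5 of 16 same-numbered ones. These counts therefore cannot show a shared extract or settle the direction. The spike-in controls described further on gave 1.56 by the EBF-over-solvent arrays and 0.056 by the rearing arrays as labelled, and -0.19 and 0.056 with the 35S:EBFS response arrays turned. They gave -0.19 and 0.018 with slide 2 turned, and 1.56 and 0.018 with the solvent rearing arrays alone turned. In the authors' deposited ratios the 4 arrays of the 35S:EBFS response run as labelled. The labelled direction was kept, and values with these arrays turned are given beside some of the results they change. Other results that rest on these arrays hold for the labelled direction only. Which direction holds, and which group is at odds, cannot be settled from the labels.

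The response to EBF differed between the rearings at 610 of 12780 tested probes, 4.77% of them, at a limma adjusted p under 0.05. In 408 probes (3.19%) the response was more positive in 35S:EBFS-reared aphids, and in 202 (1.58%) it was more negative. The calls covered 480 of 8946 probe names, 322 more positive and 158 more negative, and 0 names had calls in both directions. Without adjustment 2982 probes (23.3%) had a p under 0.05, and the smallest adjusted p was 0.00469. The differences were mostly modest: the median was 0.51 on the log2 scale (quartiles 0.40 to 0.68) for the positive calls and -0.53 (quartiles -0.85 to -0.37) for the negative ones, against a median size of 0.17 over all tested probes. A difference larger than 1 in size, a 2-fold ratio of the responses, was reached by 27 of the 408 and 37 of the 202. Over all 12780 tested probes it was reached by 290 (2.27%), most of them not called. With the arrays of the 35S:EBFS response turned, 1181 probes were called, 329 positive and 852 negative, of which 267 were among the 610. The balance of positive and negative calls also moved with array weights, to 1316 and 1309. The number of calls depended on single arrays. It fell to 328 or 282 without array 2 or 3 of the Col-0 response, to 252 without array 3 of the rearing comparison with EBF, and to 219, 344 or 406 without array 1, 2 or 3 of the 35S:EBFS response. Without array 1, 2 or 4 of the rearing comparison with solvent it was 289, 376 or 335, and without array 2 of the rearing comparison with EBF it rose to 929. The share of positive calls ran from 55.1% to 79.4% over the fits without 1 array, against 66.9%. Without all 4 arrays numbered 1 there were 36 calls (11 positive and 25 negative, 30 among the 610), and without those numbered 2 there were 68 (64 and 4, 52 shared). Without those numbered 3 there were 6 (6 and 0, 6 shared), and without those numbered 4 there were 227 (144 and 83, 166 shared). On slide 1 same-numbered arrays deviated together, and with the replicate number as a random block there 199 probes were called, 154 positive and 45 negative, all among the 610. With 1 loop value per number, a block on all arrays, 0 were called with limma (2322 unadjusted). The 8 EBF-over-solvent arrays alone gave 0 calls with limma (2527 at an unadjusted p under 0.05), and so did the 8 rearing arrays alone (1726 unadjusted).

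**Figure D1:**
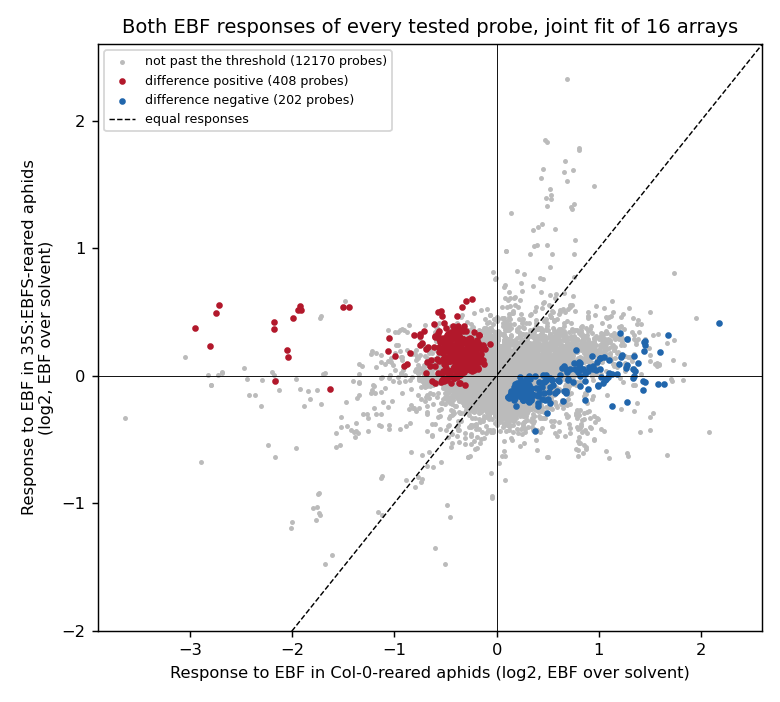
Response to EBF (log2, EBF over solvent) of each tested probe in Col-0-reared aphids on the horizontal axis and in 35S:EBFS-reared aphids on the vertical axis, both from the joint fit of 16 arrays. The 408 probes with a positive difference (red) lie to the left of the vertical line and mostly above 0, the 202 with a negative difference (blue) lie to its right, and probes in grey did not pass the threshold.

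The called probes had the larger part of their difference in Col-0-reared aphids. For the 408 positive calls the median response was -0.36 on the log2 scale in Col-0-reared aphids (quartiles -0.46 to -0.27) and 0.16 in 35S:EBFS-reared aphids (quartiles 0.095 to 0.24). In 386 of them the value was below 0 in Col-0-reared and above 0 in 35S:EBFS-reared aphids, and in 22 it was below 0 in both. Over all 12780 tested probes these numbered 3666 (28.7%) and 2872 (22.5%). For the 202 negative calls the medians were 0.44 (quartiles 0.25 to 0.87) and -0.083 (quartiles -0.14 to 0.0064). In 148 the value was above 0 in Col-0-reared and below 0 in 35S:EBFS-reared aphids, and in 54 it was above 0 in both. Over all tested probes these numbered 3475 (27.2%) and 2767 (21.7%). Picking probes by a difference of 1 sign favours such opposite responses. The absolute response was the larger in Col-0-reared aphids at 376 of 408 and 192 of 202 called probes, and at 8230 of all 12780 (64.4%). Since the calls were made on the difference itself, its split into both responses is a description without a test. It also rests on the direction of the 35S:EBFS arrays. With them turned, 340 of the same 408 probes had both responses below 0 and 68 opposite ones, and of the 202 probes 102 had both above 0 and 100 opposite ones, while the difference kept its sign at all 610. Over all tested probes that turn gave 3815 with both below 0 and 4273 with both above 0. Opposite responses were negative in Col-0-reared aphids at 2311 and positive at 2381.

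Seen as levels of the 4 conditions, the called probes stood out in exposed Col-0-reared aphids. Relative to the mean of the 4 conditions, the median level of the positive calls was -0.24 in these aphids, against 0.11 in Col-0-reared aphids with solvent, -0.015 in 35S:EBFS-reared aphids with solvent and 0.14 in those with EBF. For the negative calls the same medians were 0.29, -0.14, -0.035 and -0.11. Exposed Col-0-reared aphids were the condition farthest from that mean at 347 of 408 positive and 181 of 202 negative calls, and at 6003 of all tested probes (47.0%). With the 35S:EBFS arrays turned this held at 369, 190 and 5408. This is also the condition measured on slide 1 alone. Of the 610 called probes, 12 were not well above background on any of its 8 channels, so their level there is only a bound, while 559 of the 12780 tested probes were in that position. In Col-0-reared aphids with solvent it was 15 of all tested probes, and in 35S:EBFS-reared aphids 4 with solvent and 7 with EBF. Channels had 68.4% to 81.4% of spots well above background on slide 1 and 76.5% to 89.0% on slide 2. The part of the slide in the 559 was not tested.

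**Figure D2:**
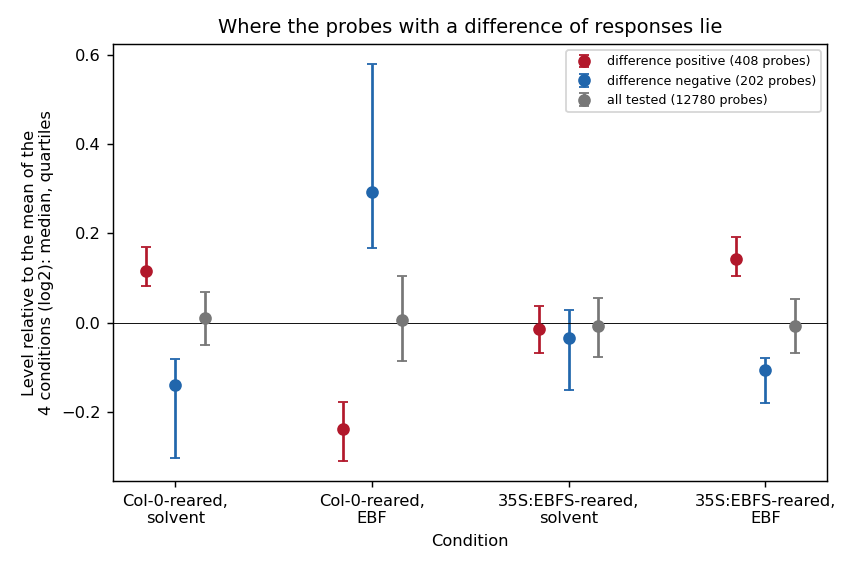
Median level (points) and quartiles (bars) of the called and of all tested probes in each condition, on the log2 scale relative to the mean of the 4 conditions. Positive calls have their lowest median, -0.24, and negative calls their highest, 0.29, in Col-0-reared aphids given EBF; all tested probes stay close to 0.

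Single arrays showed the same layout, though the fit that made the calls used them all. Over the 408 positive calls the median log2 ratio of the Col-0 response was -0.31, -0.48, -0.38 and -0.28 on its arrays 1 to 4, and that of the 35S:EBFS response was 0.19, 0.29, 0.12 and 0.12. The arrays of these 2 responses did not overlap as labelled, and would with the latter turned. The rearing comparison had medians of 0.29, 0.32, 0.37 and 0.47 with EBF and of -0.25, -0.15, 0.040 and -0.11 with solvent. Rearing thus separated the called probes on every array with EBF, and in the opposite direction on 3 of 4 arrays with solvent. Over the 202 negative calls the Col-0 response had medians of 0.30, 0.57, 0.47 and 0.35, and the 35S:EBFS response had -0.11, -0.10, -0.041 and 0.059. With EBF the rearing comparison gave -0.24, -0.46, -0.55 and -0.61, and with solvent 0.10, 0.19, 0.11 and 0.28. Every array of the Col-0 response lay above every array of the 35S:EBFS response here. Since the calls were made on these same arrays, such separation follows in part from the calling. How many of all tested probes had responses without overlap was not counted. Over all tested probes these medians ran from -0.020 to 0.025.

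The loop also holds 3 quantities that are estimated independently of the difference: the EBF effect averaged over both rearings, the rearing effect averaged over both treatments, and the closure. None of them reached the threshold at any probe with limma. The average EBF effect had 1129 probes (8.83%) at an unadjusted p under 0.05 and a smallest adjusted p of 0.399, the average rearing effect 1374 (10.8%) and 0.0567, against 1357 (10.6%) for the closure. The called probes of the contrast had small p-values for both averages more often. An unadjusted p under 0.05 for the average EBF effect was found at 75 of the 408 positive calls (18.4%) and at 98 of the 202 negative ones (48.5%). For the average rearing effect it was found at 140 (34.3%) and 75 (37.1%), and for the closure at 14 (3.43%) and 35 (17.3%). All these quantities share the probe's estimate of spread with the difference, and called probes had a smaller one: the median SE of the difference was 0.11 for positive and 0.13 for negative calls, against 0.15 over all tested probes. The part of that smaller SE in these shares was not tested.

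As labelled, the direction of the averages differed between both sets of calls. The average EBF effect was below 0 at 376 of the 408 positive calls and at 10 of the 202 negative ones, against 6864 of 12780 tested probes (53.7%). The average rearing effect was above 0 at 369 and 12, against 6038 of all tested (47.2%). Neither is a result apart from the split of the difference. Once the sign of the difference is fixed, the sign of the average EBF effect only restates which rearing had the larger absolute response, Col-0 at 376 and 192. The sign of the average rearing effect restates whether the rearings differed more with EBF or with solvent.

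Both ways round the loop gave the called sign at all 408 positive and all 202 negative calls, against 7895 of 12780 tested probes (61.8%), and the calls required both to add up. Across all tested probes the 2 ways correlated at r = 0.26, a description over probes that share arrays. The sizes were not equal. For positive calls the median difference was 0.52 from the EBF-over-solvent arrays and 0.48 from the rearing arrays, and for negative calls it was -0.42 and -0.61. The arrays of 1 replicate number, one from each group, also form a complete loop with balanced dyes. All 4 such values had the called sign at 387 of 404 positive and 197 of 201 negative calls with values for every number, and at 3873 of 12660 tested probes (30.6%). The fitted difference is the mean of these 4 values, and a call needs it to be large against the array spread. Their shared sign therefore follows largely from the calling and is no replication. The median over positive calls was 0.49, 0.60, 0.41 and 0.47 in numbers 1 to 4, and over negative calls -0.38, -0.65, -0.58 and -0.55. The SD over all probes was 0.53, 0.52, 0.51 and 0.71, so number 4 had the widest spread, which holds differences between probes as well as error.

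Many names are read by 2 probes, which test the same RNA on the same arrays and so check the probe rather than the aphids. Of 3834 names with 2 tested probes, 232 had at least 1 call. In 130 both probes were called, and in 231 both had the same sign. Among the other 102 the second probe had the called sign and an unadjusted p under 0.05 in 85. The median gap between both probes of a name was 0.040 on the log2 scale over all 3834 names. Calls were least frequent among the brightest probes. Ordered by mean signal into 5 bins of 2556 probes, the calls numbered 108, 122, 149, 153 and 78 from the dimmest to the brightest (4.23%, 4.77%, 5.83%, 5.99% and 3.05%). Among probes saturated on any array, 14 of 683 were called (2.05%), and among the others 596 of 12097 (4.93%). Probes named by other sequence identifiers than a contig had 13 calls in 158 (8.23%), 9 of them positive.

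Only 4 contigs are given in detail, the largest 2 in each direction among those whose 2 probes were both called, unsaturated and of the called sign by both ways and in at least 3 of 4 loops. The rule was met by 81 names in the positive and 44 in the negative direction. It picks on these same arrays, so a lack of overlap between the arrays of both responses at these contigs follows in part from the picking. The share of all tested probes without overlap was not counted. Values are those of the first probe unless stated.

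Contig3160 had the largest positive difference, 3.32 ± 0.88 on the log2 scale (SE, limma adjusted p = 0.0461). The log2 ratio of EBF over solvent in Col-0-reared aphids was -5.95, -1.28, -0.96 and -3.47 on arrays 1 to 4. In 35S:EBFS-reared aphids it was 0.056, 1.24, -0.51 and 0.58. All Col-0 arrays thus lay below all 35S:EBFS arrays, but the Col-0 values themselves spread widely. The rearing comparison with EBF gave 4.4, 1.29, 0.69 and 3.70, and with solvent it gave -3.28, 1.82, -2.56 and 0.53. Positive values stood on every array with EBF, whereas the solvent arrays split into 2 positive and 2 negative. In the joint fit the response was -2.95 ± 0.76 (SE) in Col-0-reared and 0.38 ± 0.76 (SE) in 35S:EBFS-reared aphids. The 4 loops gave 6.84, 0.99, 1.85 and 3.61, all positive and far apart. The second probe had a difference of 3.03 ± 0.82 (SE, limma adjusted p = 0.0482). Both p lay close to the threshold, and the first probe kept its call in 15 of 42 alternative fits and the second in 12, always with a positive value.

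Contig3705 had a difference of 1.98 ± 0.46 (SE, limma adjusted p = 0.0287), and its second probe 2.04 ± 0.47 (SE, limma adjusted p = 0.0276). The log2 ratio of EBF over solvent was -2.86, -0.66, -2.24 and -1.34 in Col-0-reared and 0.80, 1.42, 0.74 and 0.54 in 35S:EBFS-reared aphids. Here, as labelled, every Col-0 array was below 0 and every 35S:EBFS array above it. With the latter turned, all would be below 0. With EBF the rearing comparison gave 1.60, -0.26, 1.31 and 1.48, and with solvent -1.49, 1.39, -1.0 and 0.033. Array 2 was the single negative one with EBF, and the highest with solvent, where arrays fell on both sides of 0. The fitted response was -1.44 ± 0.40 (SE) in Col-0-reared and 0.54 ± 0.40 (SE) in 35S:EBFS-reared aphids. The way through the EBF-over-solvent arrays gave 2.65 and that through the rearing arrays 1.30, and the 4 loops gave 3.38, 0.21, 2.65 and 1.66. The second loop is thus close to 0. The first probe kept its call in 24 of 41 alternative fits and the second in 25 of 42, with a positive value in each.

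Contig3790 had a difference of -1.55 ± 0.41 (SE, limma adjusted p = 0.0477), and its second probe -1.70 ± 0.41 (SE, limma adjusted p = 0.0301). In Col-0-reared aphids EBF over solvent was 0.33, 0.92, 1.88 and 2.70 on arrays 1 to 4, and in 35S:EBFS-reared aphids it was 0.086, -0.41, -0.43 and 0.20. Every Col-0 array lay above every 35S:EBFS array. The rearing comparison with EBF was 0.48, -2.30, -2.24 and -2.57, and with solvent -0.70, 0.23, -0.33 and 0.17. Array 1 alone was positive with EBF, and its loop was the single one against the call: the loops gave 0.47, -1.93, -2.11 and -2.62. The fitted response was 1.43 ± 0.36 (SE) in Col-0-reared and -0.11 ± 0.36 (SE) in 35S:EBFS-reared aphids. The contig was dim: its first probe was well above background on 24 of 32 channels, 7 of 8 in exposed Col-0-reared and 4 of 8 in exposed 35S:EBFS-reared aphids. The first probe kept its call in 11 of 41 alternative fits and the second in 22 of 41, and 1 fit turned the sign of both.

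Contig556 had a difference of -1.48 ± 0.32 (SE, limma adjusted p = 0.0218), and its second probe -1.37 ± 0.32 (SE, limma adjusted p = 0.0289). EBF over solvent was 0.75, 1.47, 1.94 and 0.90 in Col-0-reared and 0.13, -1.58, -0.060 and 0.69 in 35S:EBFS-reared aphids. The groups did not overlap, but the highest 35S:EBFS array, 0.69, came close to the lowest Col-0 array, 0.75, and at the second probe they crossed (0.61 against 0.50). With EBF the rearing comparison gave -0.42, -1.06, -2.06 and -1.37, and with solvent 0.56, -0.15, -0.24 and 0.90. The rearings thus differed in 1 direction on all 4 arrays with EBF and in both directions with solvent. The fitted response was 1.27 ± 0.28 (SE) in Col-0-reared and -0.21 ± 0.28 (SE) in 35S:EBFS-reared aphids, and the loops gave -0.80, -1.98, -1.91 and -1.24, the narrowest spread of the 4 contigs. It also had the fewest channels well above background of the 4, 20 of 32 channels (4 of 8 in solvent-treated and 5 of 8 in exposed Col-0-reared aphids, 8 of 8 and 3 of 8 in the 35S:EBFS-reared). The first probe kept its call in 28 of 41 alternative fits and the second in 24 of 41, with a negative value in each.

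With the arrays of the 35S:EBFS response turned, the first probes had differences of 2.98 at contig3160, 1.1 at contig3705, -1.41 at contig3790 and -1.28 at contig556, and all but contig3705 (limma adjusted p = 0.136) passed the threshold. With the block on slide 1, the first probe of contig556 passed (limma adjusted p = 0.0470), and the other 7 probes had adjusted p of 0.0535 to 0.0754.

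**Figure D3:**
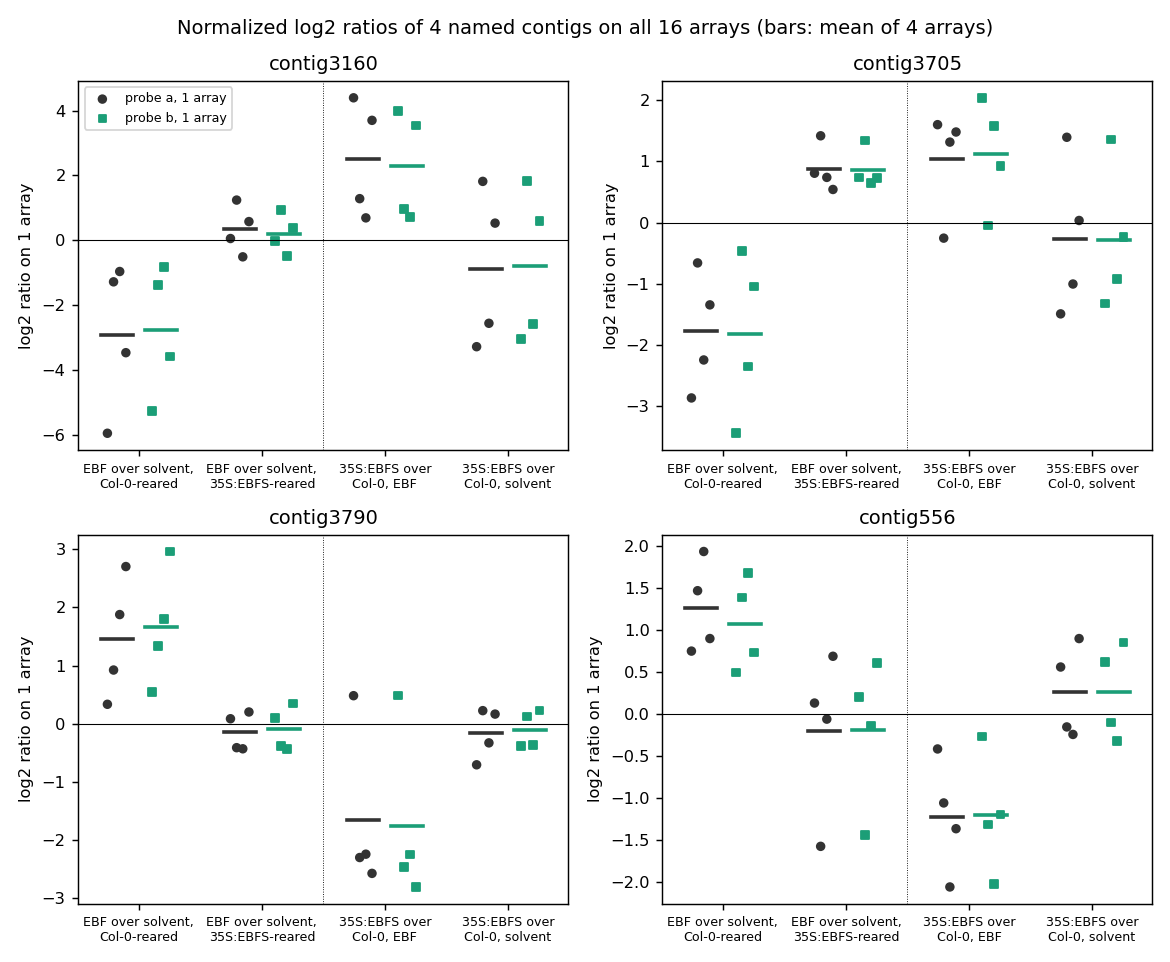
Normalized log2 ratio on each of the 16 arrays for both probes of 4 contigs, by comparison, with bars at the mean of 4 arrays; the vertical axes differ in range. The Col-0 response (leftmost) and the 35S:EBFS response, as labelled, do not overlap, except at the second probe of contig556, and the solvent rearing comparison (rightmost) has arrays on both sides of 0. The contigs were picked by calls made on these arrays.

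The control spots give the same contrast for spike-in RNA, which was not part of the aphids, for negative controls and for some aphid contigs. Each array held 10 spike-in sequences at 20 spots each, and the label protocol has spike-in RNA added to every sample. After the same normalization, which gave control spots no weight, all 10 had a positive difference, from 0.62 to 1.03 on the log2 scale, with a mean of 0.81 ± 0.31 (SE over arrays). The 4 loops gave means of 1.71, 0.47, 0.78 and 0.28 (SD 0.63). The way through the EBF-over-solvent arrays gave 1.30 to 1.70 and that through the rearing arrays -0.38 to 0.76. The mean spike-in log2 ratio was -0.68 on the arrays of the Col-0 response and 0.87 on those of the 35S:EBFS response, and close to 0 (-0.037 for Col-0 over 35S:EBFS with EBF, -0.019 for 35S:EBFS over Col-0 with solvent) on the rearing arrays. As labelled, the EBF-over-solvent arrays of both rearings thus had opposite spike-in ratios, and the rearing arrays did not show the shift that this would give. Without the arrays numbered 1 the mean difference was 0.51. Set to the spike-ins in place of the bulk of aphid probes, the median difference of all tested probes was -0.82, and 5067 probes were called, 38 positive and 5029 negative, against 408 and 202. In that scaling 9655 probes broke the closure of the loop, against 0. Both counts hold for the labelled direction. With the 35S:EBFS response arrays turned, the spike-ins gave -0.19 by the EBF-over-solvent arrays and 0.056 by the rearing arrays, and the scaling to spike-ins was not fitted there. Differences are reported relative to the bulk of aphid probes, and whether total RNA moved was not tested. The 23 negative controls lay between -0.11 and 0.10. Apart from At1g03880.1 (33.0%) and Alien1 (18.3%), at most 2.7% of their spots were well above background, so values near 0 say little there. By the EBF-over-solvent and the rearing arrays, At1g03880.1 had -0.56 and 0.72, and Alien1 -0.34 and 0.11. The 6 aphid contigs printed among the controls lay between -0.35 and 0.51, with SE of 0.10 to 0.30. For these 6 the SD of the 20 spots within an array was 0.081 to 0.20, while contig1475, singled out after its values were seen because it had the largest difference of the 6, was at 1.31, -0.38, 1.19 and -0.077 in loops 1 to 4.

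**Figure D4:**
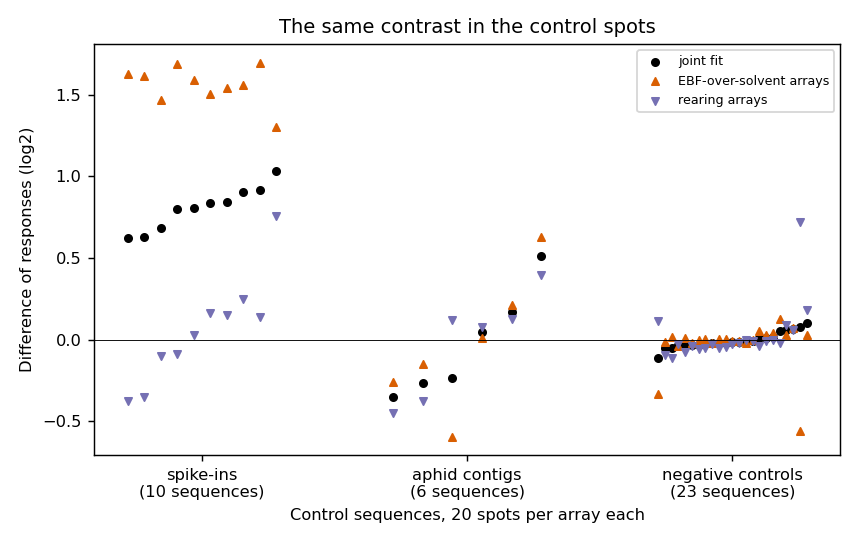
Difference of responses (log2) of each control sequence in the joint fit and by either way round the loop. As labelled, the 10 spike-ins are all above 0 in the joint fit (0.62 to 1.03) and above 1.30 by the EBF-over-solvent arrays. The 23 negative controls, most of them at background, stay between -0.11 and 0.10 in the joint fit.

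The direction of each ratio follows the dyes in the labels. In the authors' deposited ratios the 4 arrays that compare both rearings with EBF run as 35S:EBFS over Col-0, against their titles. With these arrays turned against the labels, 0 probes were called with limma (527 unadjusted), and 295 broke the closure of the loop, against 0 as labelled. With all 8 arrays of slide 2 turned, 116 were called, 24 positive and 92 negative, of which 55 were among the 610. With the solvent rearing arrays alone turned, a turn chosen after seeing the data, 329 were called, 200 positive and 129 negative. From the authors' deposited ratios, each turned by the labels' dyes, 594 probes were called, of which 589 were among the 610. The scanner software's own processed signals gave 554 calls, 317 positive and 237 negative, 431 of them shared. Fitting the dye effect separately on each slide gave 699, and array weights, which ran from 0.241 to 5.37, gave 2625.

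**Figure D5:**
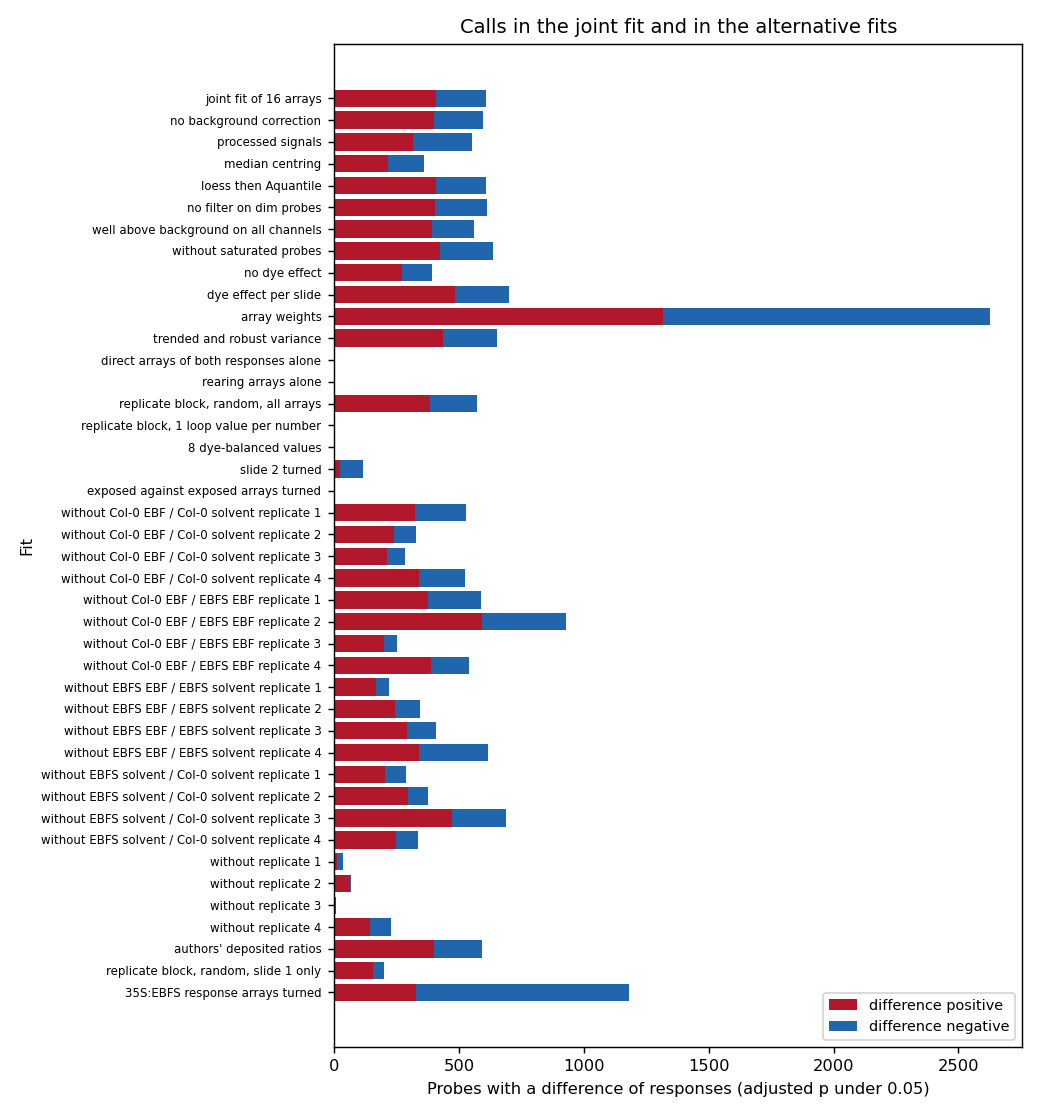
Number of probes called for the difference of responses (adjusted p under 0.05) in the joint fit and in each alternative fit, split by direction (red positive, blue negative). Array weights give 2625, either set of 8 arrays alone gives 0, and leaving out a single array gives 219 to 929.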

How the data were processed

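Per the file headers, the deposited fluorescence intensity of each spot comes from Agilent's scanner software, Feature Extraction version 10.5.1.1. The submitters' processing notes name limma without a version. The deposited value table holds the authors' log2 ratios per array, whose scale and direction were checked against the scanner values, and it entered only an alternative. Median signals were used, since the planned mean signals are not among the columns. They were corrected with normexp (offset 50) and loess-normalized within arrays, with control spots at weight 0 and 175 outlier spots left out. Probes well above background on at least 4 of 8 channels of at least 1 condition were tested, 12780 of 14628. Log2 ratios of all 16 arrays were fitted with a dye effect per probe in limma 3.58.1 under R 4.3.3 (12 residual degrees of freedom), and p-values were adjusted by Benjamini-Hochberg over all tested probes. The fit was tested on simulated data. Deviations of same-numbered arrays correlated at 0.21 to 0.42 between both groups of slide 1, so the number was also fitted there as a random block (consensus correlation 0.357), a fit chosen after seeing the data. Between other neighbouring groups they ran from -0.74 to 0.38. The number of arrays limits the precision. The contrast, the rule for named contigs and the tests were chosen with earlier results of these data known. Alternatives covered background, normalization, filters, dye terms, array weights, either set of 8 arrays, turned directions, thresholds, replicate numbers and left-out arrays. Gene lists were void, since 0 probe names matched gene names.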

Additional observations from a re-analysis of the deposited data

Results flagged for a closer look

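The 8 probes of the named contigs passed the test of the difference, which the rule for naming them required, among 610 of 12780 tested probes that did (4.77%). Their differences were 3.32 and 3.03 on the log2 scale at contig3160, 1.98 and 2.04 at contig3705, -1.55 and -1.70 at contig3790, and -1.48 and -1.37 at contig556. Of 41 groups of 4 arrays or loops examined for a value far from the others, 4 had one, and chance gives about 1 in 20. In the comparison of 35S:EBFS-reared over Col-0-reared aphids with EBF, array 2 of contig3705 stood apart at -0.26, and array 1 of contig3790 at 0.48 and 0.49 at its 2 probes. In the 35S:EBFS response, array 2 stood apart at 1.34 for the second probe of contig3705. The spike-in spots, outside the main measurement, had a mean difference of 0.81. Negative controls, most of them at background, stayed between -0.11 and 0.10.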

How the results depend on the processing

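Among the 44 alternatives for the 610 calls, loess then Aquantile normalization left the log2 ratios unchanged. Its agreement, for the named contigs as well, was therefore fixed in advance. It is counted among the 16 alternatives that kept the count within 1.5 times. The others gave 359 calls with median centring, 392 with no dye effect, 2625 with array weights, 116 with slide 2 turned, 5067 centred on spike-ins (chosen after seeing the data, as were the authors' deposited ratios, the block on slide 1 and the turned 35S:EBFS arrays), 1181 with the 35S:EBFS response arrays turned, 31 at an adjusted p of 0.01 and 1363 at 0.1. With limma 0 were called by either set of 8 arrays alone, with the exposed against exposed arrays turned, and over 8 dye-balanced values (2522 unadjusted). Leaving out 1 array gave 219 to 929 calls, and leaving out 1 replicate number 6 to 227. Signed so that a shared extract is positive, same-numbered arrays correlated at a mean r of 0.35 on slide 1, and at -0.29, -0.54 and -0.078 between the other neighbouring groups, so numbers were taken as pairs on slide 1 only. The replicate block there gave 199 calls, and the named probes' values are in the report. With the replicate block on all arrays, 1 loop value per number gave 0 calls with limma (2322 unadjusted, smallest adjusted p 0.173), with 3 residual degrees of freedom, and a random block gave 571. The average EBF effect, at 0 calls, had 1 with array weights, 1 with slide 2 turned, 7 with the 35S:EBFS arrays turned and 6 on spike-ins. The average rearing effect, at 0, had 1 with all channels required, without saturated probes, with no dye effect, with trended variance, at a threshold of 0.1, with the 35S:EBFS arrays turned and without array 2 of the exposed comparison (0 to 1 over left-out arrays), 198 with array weights, 465 with slide 2 turned and 301 with the exposed arrays turned. Closure, at 0, was broken at 295 probes with those arrays turned and at 9655 on spike-ins. Both probes of contig3790 reversed with the exposed arrays turned, to 0.11 and 0.051 (limma adjusted p = 0.990 and 0.995, within ranges of 5.78e-05 to 0.990 and 3.43e-05 to 0.995 over their alternatives). The cause of these changes was not tested. The spike-in mean moved by less than its spread in 25 of 25 alternatives, none of them with turned arrays. It was 0.68 to 0.94 without single arrays and 0.51 to 0.98 without 1 number, the lowest without number 1. With the 35S:EBFS response arrays turned, the spike-ins gave -0.19 by the EBF-over-solvent arrays and 0.056 by the rearing arrays, so their value does depend on that direction.

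The number of arrays, the spread between loops and dim or saturated spots limit these results. A p above the threshold in 35S:EBFS-reared aphids or under an alternative does not show an absent response.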
